A study of Homo sapiens with 12 samples.

Results

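The glutathione S-transferases (GSTs) described here are 10 genes, GSTP1, GSTM2, GSTM3, GSTM4, GSTK1, GSTO1, GSTZ1, MGST1, MGST2 and MGST3, chosen by name from the 58735 genes of the RNA-seq tables. RNA-seq was performed on 12 libraries of human breast cancer cells, 3 in each of 4 groups. SK-BR-3 is an established line from breast cancer, and SK/EPI cells were raised from it by long culture in rising concentrations of the anthracycline epirubicin. SK/EPI-siNC and SK/EPI-siBCRP cells were SK/EPI cells transfected for 48 h with a control siRNA or with siRNA against BCRP, the drug efflux pump encoded by ABCG2. All 4 groups therefore share the SK-BR-3 background, both siRNA groups carry the epirubicin-resistant state, and SK/EPI is a single derived line, so a change in it cannot be told apart from a difference of that line alone.

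GSTs join the tripeptide glutathione to electrophilic compounds, among them lipid peroxidation products and many drugs, and the conjugates are then exported and broken down to mercapturates. The cytosolic classes are named by Greek letters (pi, mu, omega, zeta), the kappa class is found in mitochondria and peroxisomes, and the microsomal MGST proteins belong to a separate membrane family, MAPEG, several of which also reduce lipid hydroperoxides or make leukotriene C4. GSTP1 is the class most often studied in tumors, where its promoter is a well known site of CpG methylation. Methylation was not measured in these cells.

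Promoter sequences are shown first, for GSTP1, which had almost no reads, and for members whose levels are described afterwards. RefSeq windows (GRCh38.p14) of 250 bases before to 50 bases after a gene start matched 9 of the 10 members with 11 windows, and MGST2 had none. The core of the antioxidant response element, searched as TGACNNNGC on both strands, was present in the windows of 3 members, GSTP1, GSTO1 and MGST1, and in 13.3% of all 35116 windows. In GSTP1 the match began 66 bases before the RefSeq start, and the same letters also held the AP-1 motif TGANTCA, which was present in 7.71% of all windows and in no other member. GSTO1 held 2 cores, 226 and 161 bases before its RefSeq start. That start lies 157 bases downstream of the start of its principal transcript. The first core lies wholly before that principal start, while the second begins just before it and runs across it. In MGST1 the core lay 30 bases after the first of 3 RefSeq starts, which is 534 bases from the start of the gene's principal transcript, and its letters were TGACAAAGC. The bases upstream of the RefSeq starts of GSTP1 (chr11:67583562-67583811, plus strand) and GSTO1 (chr10:104254642-104254891, plus strand) are printed with these cores in capitals.
GSTP1: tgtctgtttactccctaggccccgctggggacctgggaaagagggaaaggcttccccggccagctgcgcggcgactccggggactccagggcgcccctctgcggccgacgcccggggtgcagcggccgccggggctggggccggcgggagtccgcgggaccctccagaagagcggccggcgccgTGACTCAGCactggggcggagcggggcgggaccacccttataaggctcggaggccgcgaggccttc
GSTO1: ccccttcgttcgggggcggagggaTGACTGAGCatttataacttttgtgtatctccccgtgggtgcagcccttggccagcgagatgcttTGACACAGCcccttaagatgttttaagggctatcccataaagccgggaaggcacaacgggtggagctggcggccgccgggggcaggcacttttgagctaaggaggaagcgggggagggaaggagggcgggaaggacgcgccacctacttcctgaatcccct
GSTM4, the member with a large change in both comparisons, and MGST1, the member with the largest rise in SK/EPI cells, are printed with the GC box GGGCGG in capitals (chr1:109655849-109656098, and chr12:16347395-16347644 for the MGST1 start 4 bases from that of its principal transcript, both plus strand). This motif was in the windows of 8 of the 9 members, all but GSTM3, and in 45% of all windows. Members were counted if any of their windows matched, here and for the motifs above, while the shares are of single windows. The first MGST1 window lacked the GC box.
GSTM4: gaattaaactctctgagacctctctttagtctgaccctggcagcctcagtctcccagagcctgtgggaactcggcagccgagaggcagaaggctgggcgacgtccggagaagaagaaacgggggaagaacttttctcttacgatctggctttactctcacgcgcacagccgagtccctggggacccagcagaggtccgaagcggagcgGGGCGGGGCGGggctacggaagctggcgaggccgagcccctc
MGST1: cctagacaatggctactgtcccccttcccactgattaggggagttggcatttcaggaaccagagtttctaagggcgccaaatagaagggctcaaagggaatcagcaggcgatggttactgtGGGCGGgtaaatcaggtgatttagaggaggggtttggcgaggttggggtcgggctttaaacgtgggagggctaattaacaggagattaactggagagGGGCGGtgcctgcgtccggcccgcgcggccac
The number of CpG pairs in a window ran from 36 in GSTP1 to 1 in GSTM3, against a median of 14 over all windows, and 12.7% of all windows had as many as GSTP1. The GSTM3 window belongs to a RefSeq start 522 bases upstream of its principal transcript. The GSTP1 RefSeq start lies 217 bases downstream of that of its principal transcript, so the GSTP1 core lies after the principal start. Matches describe the letters of these windows only.

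Levels are in FPKM (fragments for each kilobase of exon, scaled by library size), from which the reads behind each value could be recovered. A library held 15830381 to 20545811 reads on genes. A gene was called changed when its adjusted p-value was under 0.05 in limma with Benjamini-Hochberg adjustment over all tested genes, and fold changes on the log2 scale are of FPKM + 1, which understates the change of low genes. Values are mean ± SD of 3 libraries, and since the labels do not say that the libraries came from separate cultures, p-values measure the spread between these libraries. ABCG2 rose from 0.0497 ± 0.0266 FPKM in SK-BR-3 to 34.1 ± 1.61 in SK/EPI cells. It fell from 33.0 ± 0.673 in SK/EPI-siNC to 3.08 ± 0.345 in SK/EPI-siBCRP cells, the direction of the silencing named in the labels. All 6 markers of SK-BR-3 identity were detected in every group, at levels that went both ways. In SK/EPI cells ERBB2, amplified in this line, was 4.95-fold, KRT19 3.24-fold and GRB7 2.45-fold lower than in SK-BR-3, KRT18 was 1.68-fold and KRT8 1.18-fold higher, and EPCAM was not called. After BCRP silencing all 6 were called lower, by 1.05-fold (EPCAM) to 1.41-fold (GRB7). Among markers of other cells, the 5 leukocyte genes summed to 1.42 to 1.77 FPKM in SK-BR-3 and 27 to 29 in SK/EPI, nearly all of it CD14, while PTPRC stayed at 3 reads or fewer. The 4 endothelial genes summed to 6.70 to 7.00 and 27.0 to 28.1, nearly all of it CDH5, with KDR at the floor of 3 reads. The 5 fibroblast genes summed to 1.58 to 1.66 and 1.04 to 1.15, with DCN and LUM at the floor, and the 3 adipocyte genes to 0.244 to 0.341 and 0.445 to 0.679, with ADIPOQ at the floor. Between SK/EPI-siNC and SK/EPI-siBCRP cells the leukocyte sum was 7.39 to 8.31 and 9.0 to 9.69, the endothelial sum 13.9 to 14.1 and 22.3 to 22.5, the fibroblast sum 1.51 to 1.59 and 1.39 to 1.48, and the adipocyte sum 0.464 to 0.610 and 0.450 to 0.689. The part of these genes in the results was not tested. In bulk RNA, fewer cells with a transcript and less RNA per cell cannot be told apart.

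To learn which GSTs differed between resistant and parental cells, SK/EPI was compared with SK-BR-3. MGST1 was 2.18-fold and GSTM3 1.51-fold higher in SK/EPI cells, while GSTM4 was 1.80-fold, MGST3 1.45-fold and GSTO1 1.22-fold lower. MGST2 was called higher by a small margin, and GSTP1 had almost no reads in either line. Of the 10 members, 9 were tested, of which 3 rose, 3 fell and 3 were not called. The background was high, since 74.9% of all 15823 tested genes were called, 37.9% up and 37% down, so 6 of 9 called members is no more than the share among all genes. The median log2 fold change was 0.08 over the members tested and 0.01 over all genes. The 0.08 is the value of GSTM2 itself, a gene with few reads, so nothing is read from this median. Leaving out GSTM2, which passed the filter on low genes only through its SK/EPI libraries, the groups did not overlap in 6 of the 8 other tested members. The share was 77.7% of all tested genes, but it still counts genes that passed the filter through 1 group alone.

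**Figure D1:**
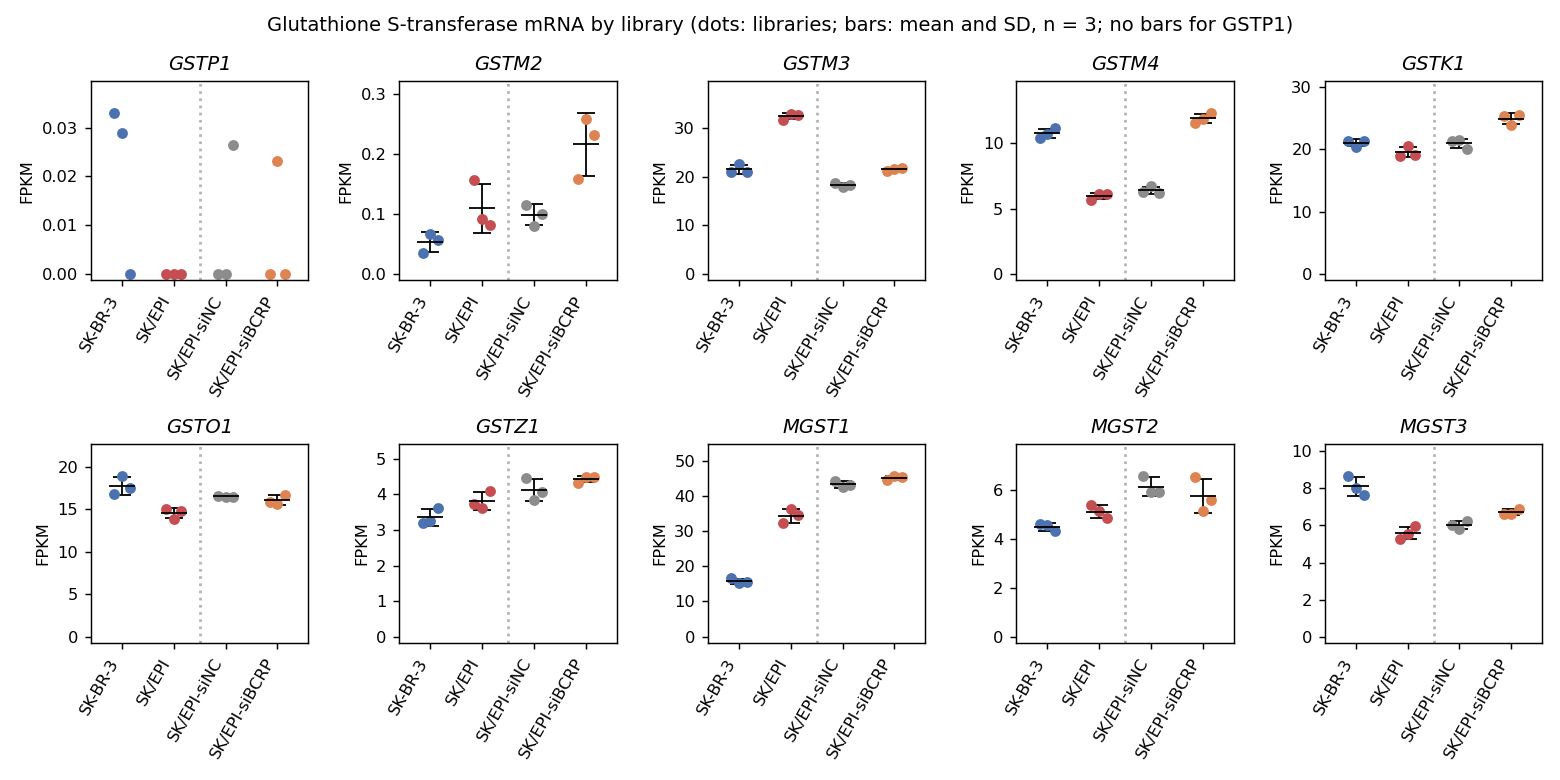
FPKM (y axis, from 0, its own scale for each gene) of the 10 GST genes in each of the 12 libraries, by group (x axis), with bars for the mean and SD of 3 libraries except for GSTP1; the dotted line divides the deposited tables. MGST1 and GSTM3 stand higher and GSTM4 and MGST3 lower in SK/EPI than in SK-BR-3, and GSTM4 has a mean of 11.9 FPKM in SK/EPI-siBCRP against 6.40 in SK/EPI-siNC.

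The mu class genes GSTM4, GSTM2 and GSTM3 lie in 1 cluster on chromosome 1 (GRCh38), together with GSTM1 and GSTM5. GSTM4 (ENSG00000168765, chr1:109656081-109674836, plus strand) encodes a cytosolic mu class enzyme. Its level was 10.4, 10.7 and 11.1 FPKM in SK-BR-3 and 5.67, 6.10 and 6.11 in SK/EPI cells. Every SK/EPI library lay below every SK-BR-3 library, and the log2 fold change was -0.75 (SE 0.05, adjusted p = 2.06e-06, limma). GSTM3 (ENSG00000134202, chr1:109733932-109741038, minus strand), a mu class enzyme known from brain and testis, moved the other way. It read 21.0, 22.6 and 20.9 FPKM in SK-BR-3 and 31.7, 32.9 and 32.6 in SK/EPI cells, with no overlap and a log2 fold change of 0.57 (SE 0.04, adjusted p = 3.91e-06, limma). The FPKM ratio of GSTM3 to GSTM4 within a library was 1.88 to 2.12 in SK-BR-3 and 5.33 to 5.59 in SK/EPI cells. The antisense gene AL158847.1, which overlaps 4.25% of the exon bases of GSTM3 on the opposite strand, rose by 0.71 on the log2 scale (adjusted p = 0.00241, limma). Whether counting used strand is not given in the sources used here, and the part of its reads in GSTM3 was not tested.

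GSTM2 (ENSG00000213366, chr1:109668022-109709551, plus strand), also of the mu class, was hardly expressed. It had 5, 11 and 10 reads in SK-BR-3 and 28, 15 and 14 reads in SK/EPI cells, or 0.0346, 0.0668 and 0.0576 FPKM and 0.157, 0.0911 and 0.0820 FPKM. The SK/EPI libraries were all higher, but the gene was not called (log2 fold change 0.08, SE 0.04, adjusted p = 0.112, limma), and its non-overlap is not counted, since only 1 SK-BR-3 library reached the filter. With a pseudocount of 0.1 the log2 fold change was 0.45, and with voom on the recovered reads 0.99, and it was called in both. GSTM2 is also hard to count, since 63.6% of the 100-base stretches of its principal transcript also occur in other genes, GSTM1, GSTM4 and AC000032.1, against 4.49% for GSTM4 and 2.66% for GSTM3. The exons of GSTM2 and GSTM4 also overlap on the same strand, over 6.53% of the exon bases of GSTM4.

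The microsomal genes differed most among themselves. MGST1 (ENSG00000008394, chr12:16347142-16609259), a membrane enzyme of the endoplasmic reticulum and the outer mitochondrial membrane with transferase and peroxidase activity, had 16.6, 15.2 and 15.4 FPKM in SK-BR-3 and 32.2, 36.2 and 34.6 in SK/EPI cells. The groups lay far apart, and the log2 fold change was 1.08 (SE 0.05, adjusted p = 5.17e-07, limma), the largest of the members tested. MGST3 (ENSG00000143198, chr1:165630861-165661796), whose protein reduces lipid hydroperoxides and can make leukotriene C4, fell. It had 8.67, 8.02 and 7.66 FPKM in SK-BR-3 and 5.28, 5.53 and 5.96 in SK/EPI cells, without overlap, and a log2 fold change of -0.47 (SE 0.06, adjusted p = 0.00017, limma). The FPKM ratio of MGST1 to MGST3 was accordingly 1.90 to 2.01 in SK-BR-3 and 5.81 to 6.55 in SK/EPI libraries. MGST2 (ENSG00000085871, chr4:139665768-139740745), which can also make leukotriene C4, had 4.61, 4.59 and 4.32 FPKM in SK-BR-3 and 5.39, 5.15 and 4.87 in SK/EPI cells. The groups did not overlap, and it was called up at a log2 fold change of 0.15 (SE 0.05, adjusted p = 0.0292, limma). The call was lost without SK-BR-3 replicate 3 (adjusted p = 0.0843, limma), SK/EPI replicate 1 (0.0985) or SK/EPI replicate 2 (0.0745), and the fold change grew to 0.24 when libraries were scaled by their reads on genes outside the mitochondrial chromosome. MAML3, on the opposite strand over 7.92% of the exon bases of MGST2, rose by 0.74 on the log2 scale (adjusted p = 2.62e-05, limma), and the part of its reads was not tested.

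GSTO1 (ENSG00000148834, chr10:104235356-104267459) encodes the omega class enzyme, a thiol transferase and dehydroascorbate reductase. It had 16.8, 19.0 and 17.5 FPKM in SK-BR-3 and 15.0, 13.9 and 14.8 in SK/EPI cells. All SK/EPI libraries were lower, and it was called down with a log2 fold change of -0.27 (SE 0.05, adjusted p = 0.00163, limma), which shrank to -0.17 under scaling by reads on genes outside the mitochondrial chromosome and was still called. GSTK1 (ENSG00000197448, chr7:143244093-143270854), the kappa class enzyme of mitochondria and peroxisomes, read 21.4, 20.4 and 21.4 FPKM in SK-BR-3 and 19.0, 20.6 and 19.1 in SK/EPI cells. The groups overlapped and GSTK1 was not called, with a log2 fold change of -0.10 (95% interval -0.20 to -0.0063, adjusted p = 0.0525, limma). It was called with median-of-ratios scaling, with voom, and without SK-BR-3 replicate 2 (log2 fold change -0.12) or SK/EPI replicate 2 (-0.14), and its fold change fell to -0.019 under scaling by reads on genes. GSTZ1 (ENSG00000100577, chr14:77320884-77331597) encodes maleylacetoacetate isomerase, the zeta class enzyme of tyrosine breakdown. Its 3.19, 3.25 and 3.63 FPKM in SK-BR-3 overlapped the 3.72, 3.62 and 4.09 FPKM in SK/EPI cells, and it was not called (log2 fold change 0.14, 95% interval -0.0081 to 0.29, adjusted p = 0.0776, limma). GSTZ1 was called when scaled by reads on genes (log2 fold change 0.21), by reads outside the mitochondrial chromosome (0.23), with voom (0.18) or without SK-BR-3 replicate 3 (0.19).

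GSTP1 (ENSG00000084207, chr11:67583595-67586656, plus strand), the pi class gene, had 1, 1 and 0 reads in the SK-BR-3 libraries and 0 reads in each of the SK/EPI libraries, so it could not be tested. A count of 0 allows up to 3 reads, which is 0.0801 to 0.0869 FPKM in the SK/EPI libraries, and this limit covers counting error only. None of the 100-base stretches of its transcripts occurs in another gene. Genes around it were read well. Of 15 tested genes within 200 kb of GSTP1, 13 were lower and 1 was higher in SK/EPI cells, where 37% of all tested genes were lower and 37.9% higher, at a median log2 fold change of -0.53. The nearest on either side were CDK2AP2, a CDK2-associated protein gene, at -1.03 (adjusted p = 7.61e-08, limma) and NDUFV1, a subunit of mitochondrial complex I, at -0.64 (adjusted p = 5.03e-07, limma). Around MGST3 all 3 tested genes were lower, the nearest being ALDH9A1, an aldehyde dehydrogenase, at -0.62 (adjusted p = 3.44e-06, limma). Around GSTM4, 5 of 8 tested genes were lower and 2 higher, with AMPD2, an AMP deaminase, next to it at -0.50 (adjusted p = 1.93e-05, limma). GSTO2, the other omega class gene and the right neighbor of GSTO1, also fell, by 0.63 on the log2 scale (adjusted p = 1.42e-05, limma). Next to GSTK1, PIP was called at -1.28 and TMEM139 at 0.22. TMED8, next to GSTZ1, was called at 0.55, and the pseudogene H3F3AP6, next to MGST2, at -0.16. POMT2, next to GSTZ1, and SFR1, next to GSTO1, were not called. Around GSTM3, 2 of 6 tested genes were higher and 3 lower, around GSTM2 2 of 8 and 6, around GSTK1 2 of 7 and 3, around GSTO1 1 of 4 and 1, around GSTZ1 5 of 7 and 1, and around MGST2 2 of 5 and 2. Windows of the mu class genes share neighbors and count the other mu class members among them, so these counts partly repeat the members' own calls. Around MGST1 no gene within 200 kb was tested.

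**Figure D2:**
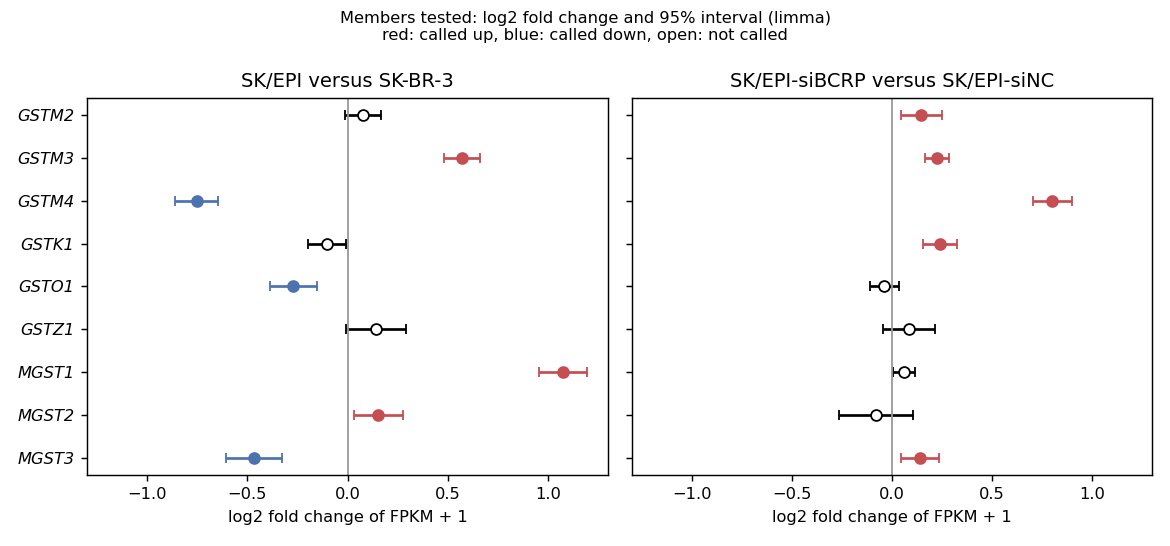
Log2 fold change of FPKM + 1 (x axis) with its 95% interval for the 9 tested GST genes (y axis), SK/EPI over SK-BR-3 in the left panel and SK/EPI-siBCRP over SK/EPI-siNC in the right one; filled red and blue points were called up and down, and open points were not called. GSTM4 lies at -0.75 in the left panel and at 0.80 in the right one, and no member was called down after BCRP silencing.

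To learn whether GST mRNA moved with BCRP, SK/EPI-siBCRP was compared with SK/EPI-siNC. The labels do not name the BCRP siRNA, and a change here cannot be told apart from an effect of that siRNA on other genes. GSTM4 was 1.86-fold higher in BCRP-silenced cells, GSTK1 1.19-fold, GSTM3 1.18-fold and MGST3 1.12-fold higher, and the barely expressed GSTM2 was also called. No member fell. Of the 10 members 9 were tested, and 5 rose, 0 fell and 4 were not called by limma, where 38.1% of all 16298 tested genes were called, 19.4% up and 18.7% down. Of the members not called, GSTO1 and MGST2 had negative fold changes, and 0 had a negative change with an unadjusted p-value under 0.05, nor was any called down with voom. The number called was 3 without SK/EPI-siNC replicate 1 or 2, or SK/EPI-siBCRP replicate 2 or 3, and the calls lost were those of GSTM2 and MGST3. The median log2 fold change was 0.14 over the members tested and -0.0036 over all genes. The 0.14 is the value of MGST3 itself, whose call did not hold in every fit, so nothing is read from this median. Groups did not overlap in 6 of 9 members, against 50.9% of all tested genes.

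GSTM4 had 6.28, 6.72 and 6.19 FPKM in SK/EPI-siNC and 11.5, 11.8 and 12.3 in SK/EPI-siBCRP cells. The groups lay far apart, and the log2 fold change was 0.80 (SE 0.04, adjusted p = 1.38e-05, limma), against -0.75 for SK/EPI over SK-BR-3. GSTM3 had 18.7, 17.9 and 18.3 FPKM with the control siRNA and 21.2, 21.6 and 21.8 with the BCRP siRNA. It did not overlap between groups and rose by 0.22 on the log2 scale (SE 0.03, adjusted p = 0.000563, limma). The ratio of GSTM3 to GSTM4 within a library was 2.67 to 2.98 in SK/EPI-siNC and 1.78 to 1.84 in SK/EPI-siBCRP cells. GSTM2 had 24, 14 and 18 reads in SK/EPI-siNC and 28, 53 and 41 reads in SK/EPI-siBCRP cells, or 0.0987 ± 0.0174 and 0.216 ± 0.0522 FPKM. It passed the filter in all 6 libraries and was called (log2 fold change 0.15, SE 0.04, adjusted p = 0.0340, limma), but 5 of the 6 fits that left out a library lost the call, with adjusted p up to 0.101, all but the fit without SK/EPI-siBCRP replicate 1. The fold change was 0.66 with a pseudocount of 0.1 and 1.10 with voom. Part of its sequence is shared with GSTM1, GSTM4 and AC000032.1, and the share with GSTM4 alone is not given here. GSTM4 rose in the same libraries, and a part of GSTM4 reads in this count was not tested. GSTM1 itself had 0 reads in all 6 libraries.

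Of the remaining cytosolic and mitochondrial members, only GSTK1 was called. GSTK1 had 21.3, 21.5 and 20.1 FPKM in SK/EPI-siNC and 25.3, 23.9 and 25.6 in SK/EPI-siBCRP cells. Each BCRP-silenced library was higher than each control library, and the log2 fold change was 0.24 (SE 0.04, adjusted p = 0.00191, limma). GSTO1 had 16.5 FPKM in each control library and 15.9, 15.6 and 16.7 after BCRP silencing. Its range after silencing took in the control value, with a log2 fold change of -0.04 (95% interval -0.11 to 0.03, adjusted p = 0.359, limma). GSTZ1 overlapped as well, at 4.45, 3.84 and 4.07 against 4.32, 4.48 and 4.48 FPKM (log2 fold change 0.09, 95% interval -0.04 to 0.21, adjusted p = 0.264, limma). GSTP1 had 1 read in 1 library of each group and 0 in the others, where 3 reads would be 0.0688 to 0.0824 FPKM, so no level could be set.

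Among the microsomal genes, MGST3 had 6.01, 5.78 and 6.23 FPKM in SK/EPI-siNC and 6.60, 6.62 and 6.90 in SK/EPI-siBCRP cells. The groups did not overlap and it was called up by 0.14 on the log2 scale (SE 0.04, adjusted p = 0.0323, limma), but 5 of the 6 fits without a library lost this call (adjusted p up to 0.0989), all but the fit without SK/EPI-siNC replicate 3. MGST1, already the highest member, had 44.3, 42.4 and 43.1 FPKM with the control siRNA and 44.5, 45.5 and 45.3 with the BCRP siRNA. Its groups did not overlap, yet it was not called (log2 fold change 0.06, 95% interval 0.0047 to 0.11, adjusted p = 0.0833, limma), so a rise of more than 0.11 lay outside the interval. MGST2 had 6.60, 5.93 and 5.93 FPKM against 6.55, 5.17 and 5.62, with overlap and the widest interval of the members in this comparison (log2 fold change -0.08, 95% interval -0.27 to 0.11, adjusted p = 0.466, limma). The neighbors of the mu genes included CSF1, a growth factor of macrophages next to GSTM3, which rose by 0.64 on the log2 scale (adjusted p = 4.75e-05, limma), and AMPD2, next to GSTM4, which rose by 0.16 (adjusted p = 0.0319, limma). POMT2, next to GSTZ1, rose by 0.40 (adjusted p = 0.000268, limma), and TMEM139, next to GSTK1, was called down at -0.24 (adjusted p = 0.0194, limma). The nearest neighbors SFR1, GSTO2, TMED8, LMO3, H3F3AP6, MAML3 and ALDH9A1 were not called. Around GSTP1, 4 of 15 tested genes rose and 3 fell, against 19.4% and 18.7% of all tested genes, with NDUFV1 at 0.61 (adjusted p = 1.09e-05, limma) and CDK2AP2 not called. Around GSTM3 4 of 5 tested genes rose and 0 fell, and around GSTM2 and GSTM4 3 of 7 and 1 each. For these mu class genes the rising genes include the other mu class members, whose calls are given above. Around GSTK1 the numbers rising and falling were 0 of 5 and 2, around GSTZ1 4 of 9 and 0, and around GSTO1 0 of 3 and 0. Around MGST2 they were 1 of 4 and 0, and around MGST3 2 of 3 and 0.

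The order of the members by level was then compared across the 4 groups. Values per kilobase of merged exons, the length behind the deposited FPKM, put GSTM3 (21.5 ± 0.951 FPKM) and GSTK1 (21.1 ± 0.575) first in SK-BR-3, and these did not differ beyond their spread. They were followed by GSTO1 (17.8 ± 1.08), MGST1 (15.8 ± 0.752), GSTM4 (10.7 ± 0.361), MGST3 (8.12 ± 0.511), MGST2 (4.51 ± 0.162) and GSTZ1 (3.35 ± 0.240), with no overlap between neighbors in this order. In SK/EPI cells MGST1 (34.3 ± 2.03) and GSTM3 (32.4 ± 0.638) came first and overlapped, and lower down GSTM4 overlapped MGST3, and MGST3 overlapped MGST2. MGST1 was first in SK/EPI-siNC (43.3 ± 0.943) and SK/EPI-siBCRP cells (45.1 ± 0.521), ahead of GSTK1 (21.0 ± 0.729 and 24.9 ± 0.873). In SK/EPI-siNC cells GSTM4 (6.40 ± 0.281), MGST2 (6.15 ± 0.386) and MGST3 (6.005 ± 0.221) overlapped in turn, and in SK/EPI-siBCRP cells no neighbors in the order overlapped. GSTM3 was at 18.3 FPKM in SK/EPI-siNC and 32.4 in untransfected SK/EPI cells, but these stand in tables that may have been normalized apart, and no test was made between them. The 10 genes summed to 102 to 104 FPKM in SK-BR-3, 118 to 124 in SK/EPI, 121 to 124 in SK/EPI-siNC and 135 to 139 in SK/EPI-siBCRP libraries.

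**Figure D3:**
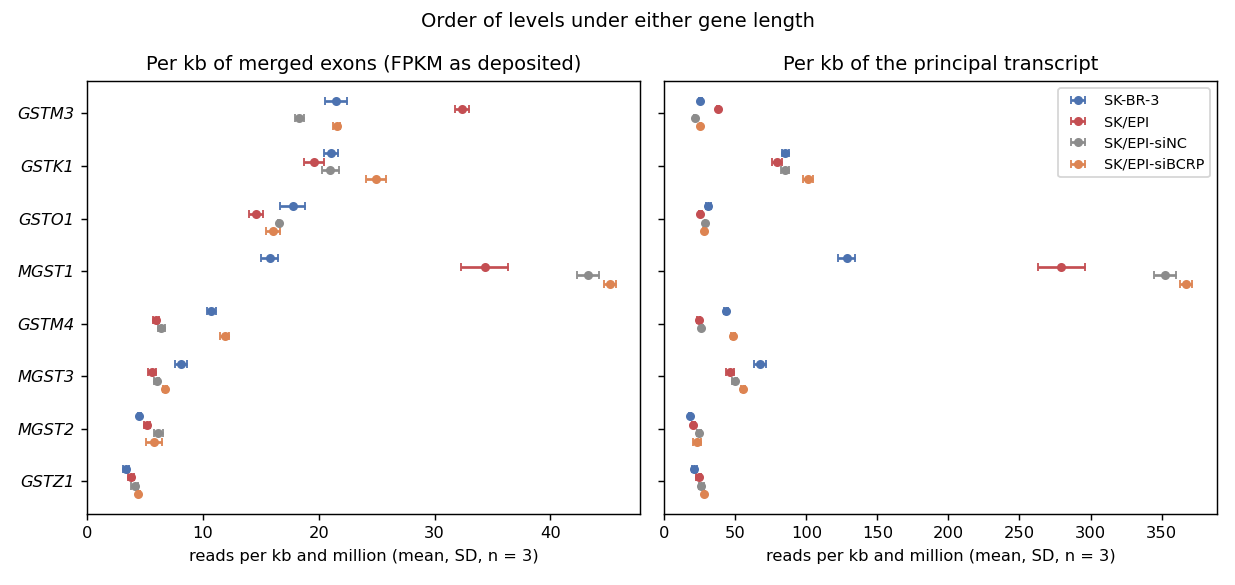
Level of 8 GST genes (y axis; GSTP1 and GSTM2 left out as near 0) as mean and SD of 3 libraries in each group (colors), as FPKM (x axis, from 0), with the deposited merged exon length in the left panel and the principal transcript's length in the right one. GSTM3 is first in SK-BR-3 at 21.5 in the left panel, while MGST1 leads every group in the right one, from 128 in SK-BR-3 to 367 in SK/EPI-siBCRP.

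This order depended on the length used. Merged exons were 1.17 times as long as the principal transcript for GSTM3 but 8.14 times for MGST1 and 8.28 times for MGST3, and the tables do not show which transcripts were expressed. Per kilobase of the principal transcript, a scale added after the values were seen, MGST1 was first in all 4 groups, at 128 ± 6.12, 280 ± 16.5, 352 ± 7.67 and 367 ± 4.24 in SK-BR-3, SK/EPI, SK/EPI-siNC and SK/EPI-siBCRP. GSTK1 was second, at 85.3 ± 2.33, 79.3 ± 3.49, 85.0 ± 2.95 and 101 ± 3.54, followed by MGST3, at 67.2 ± 4.23, 46.3 ± 2.86, 49.7 ± 1.83 and 55.5 ± 1.39. On this scale GSTM3 was sixth in SK-BR-3 cells, at 25.2 ± 1.12. MGST1 made up 30.5% of the members' summed level in SK-BR-3 and 52.0% in SK/EPI cells by principal transcript, or 15.3% and 28.3% by deposited FPKM. Comparisons of the same gene between groups do not depend on this length beyond the pseudocount.

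The other genes of the glutathione pathway were taken from 4 lists. Of 17 other GST and MAPEG genes, 16 were in the tables and 5 passed the filter in each comparison. In SK/EPI cells all 5 were called, 3 up and 2 down (median log2 fold change 0.33). PTGES, the inducible prostaglandin E synthase, rose from 47.4 ± 1.89 to 111 ± 1.48 FPKM (log2 fold change 1.21, adjusted p = 3.31e-08, limma), and LTC4S, leukotriene C4 synthase, from 3.05 ± 1.03 to 7.29 ± 0.602 (1.07, adjusted p = 0.000874). Among the other MAPEG genes, MGST1 was 2.18-fold and MGST2 1.14-fold higher, MGST3 was 1.45-fold lower, and ALOX5AP was not tested. After BCRP silencing 1 of the 5 rose, PTGES at 0.25 (adjusted p = 9.87e-05, limma), and 1 fell, GSTA4, an alpha class enzyme that conjugates hydroxynonenal, at -0.34 (adjusted p = 0.00555, limma), with a median of -0.05.

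Of 16 genes of glutathione synthesis and turnover, 15 were tested in SK/EPI over SK-BR-3, where 6 rose and 7 fell (median -0.16). The 3 with the largest changes were all lower. GGT1, which cuts the gamma-glutamyl bond of extracellular glutathione, fell from 7.15 ± 0.239 to 0.365 ± 0.0929 FPKM (log2 fold change -2.58, adjusted p = 1.6e-08, limma), although GGT1 has close copies whose reads may not have been told apart. GGT6, of the same family, fell from 16.1 ± 0.899 to 2.75 ± 0.396 FPKM (-2.19, adjusted p = 1.14e-07, limma), and CNDP2, a peptidase that can split cysteinylglycine, from 36.8 ± 1.42 to 8.42 ± 0.0793 (-2.004, adjusted p = 2.97e-09). After BCRP silencing 3 of 14 tested rose and 2 fell (median 0.0025). CHAC2, a glutathione-degrading cyclotransferase, rose by 0.46 (adjusted p = 0.000213, limma) and SLC3A2, the heavy chain of the cystine transporter, by 0.35 (adjusted p = 0.000135), while GGT7 was at -0.16 (adjusted p = 0.0222).

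Among 15 glutathione-dependent redox enzymes, 13 were tested in each comparison. In SK/EPI cells 4 rose and 8 fell (median -0.68). GPX2, a cytosolic glutathione peroxidase, fell from 5.61 ± 1.02 to 0.400 ± 0.0725 FPKM (log2 fold change -2.23, adjusted p = 5.21e-07, limma), whereas GPX8, of the endoplasmic reticulum, rose from 0.185 ± 0.0381 to 3.08 ± 0.239 (1.78, adjusted p = 7.78e-08) and the glutaredoxin GLRX from 2.33 ± 0.0483 to 6.97 ± 0.250 (1.26, adjusted p = 1.51e-07). After BCRP silencing 6 rose and 4 fell (median 0.14). GLO1, the glyoxalase that removes methylglyoxal, rose from 29.9 ± 0.877 to 42.7 ± 0.899 FPKM (0.50, adjusted p = 2.27e-05, limma), GSR, which regenerates reduced glutathione, by 0.38 (adjusted p = 0.000101) and GLRX5, of mitochondrial iron-sulfur assembly, by 0.33 (adjusted p = 0.00171).

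Conjugate export and mercapturate formation held 9 genes, of which 7 were tested. In SK/EPI cells 2 rose and 5 fell (median -0.29). ABCC2, an exporter of glutathione conjugates, rose from 0.778 ± 0.0257 to 1.70 ± 0.129 FPKM (log2 fold change 0.60, adjusted p = 2.52e-05, limma), while ABCC5 fell from 33.3 ± 0.990 to 18.0 ± 0.572 (-0.85, adjusted p = 2.74e-07) and ABCC4 from 2.22 ± 0.163 to 0.831 ± 0.0480 (-0.82, adjusted p = 6.01e-06). After BCRP silencing 1 rose, ABCC2 at 0.23 (adjusted p = 0.0200, limma), and 2 fell, ABCC5 at -0.40 (adjusted p = 5.04e-05) and ABCC1 at -0.16 (adjusted p = 0.00734), with a median of -0.14. Like the GST genes, these lists are to be read against the 74.9% and 38.1% of all tested genes that were called.

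**Figure D4:**
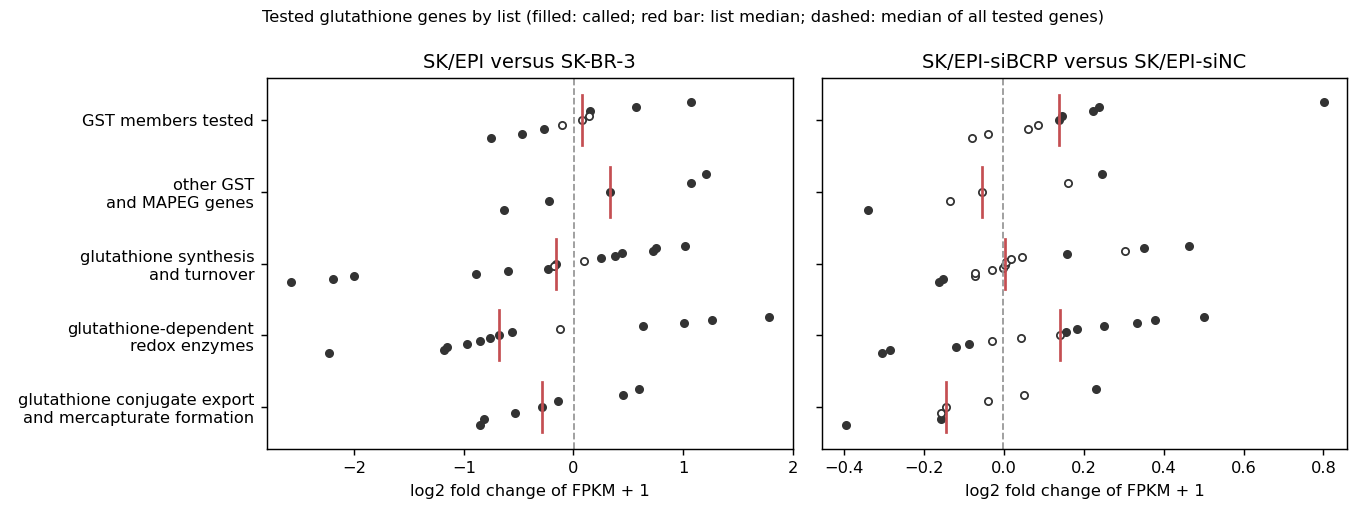
Log2 fold change of FPKM + 1 (x axis, a different range in each panel) of every tested gene in the GST members and the 4 other glutathione lists (y axis), SK/EPI over SK-BR-3 at left and SK/EPI-siBCRP over SK/EPI-siNC at right. Filled points were called, red bars are list medians and the dashed line is the median of all tested genes. The members' median is 0.08 at left, which is the value of GSTM2, and 0.14 at right, which is the value of MGST3.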

How the data were processed

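Values were deposited by the authors as 2 tables of 58735 genes, 1 for each comparison, in FPKM, although no unit is written in them. The submitters' processing notes name HISAT2 2.0.5, featureCounts 1.5.0-p3, DESeq2 1.16.1 and hg38. Multiplied by the gene's merged exon length in GENCODE 29, each value was a whole multiple (within 0.05) of a step fixed for its library, which gave the reads. The totals behind the FPKM followed median-of-ratios size factors within -0.54% to 0.49%. Settings for strand and for reads with several positions are not given in the sources used here. Groups and replicate numbers are those of the labels, and all columns were used.

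A gene was tested with 10 or more reads (at the median library size) in 3 libraries and 15 in total. In each table limma 3.58.1 (trend, R 4.3.3) was fitted to log2(FPKM + 1) by group alone, with Benjamini-Hochberg adjustment over all tested genes and a threshold of 0.05, after a test on simulated data with 200 changed genes. Shared sequence was counted in stretches of 100 bases over all GENCODE transcripts. Promoters are from RefSeq. Python 3.11.15 was used for other steps, with numpy 2.4.6, pandas 2.3.3 and matplotlib 3.10.9.

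All members are named, then the 3 called genes of each other list with the largest change and the nearest tested neighbors within 200 kb. GSTM1 was picked after its values were seen. GSTT1 was not analysed here. The members and lists were chosen with earlier results of these data known. Alternatives were no filter, 10 reads in every library, a pseudocount of 0.1, 3 other scalings, voom on recovered reads, a replicate block, leaving out each library, a log2 fold change limit of 1 and an adjusted p under 0.01. Levels per principal transcript were added after seeing the data.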

Additional observations from a re-analysis of the deposited data

How the results depend on the processing

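Over the alternatives, 120 of 134 fits of single members kept their direction and call in SK/EPI over SK-BR-3, 10 gained a call and 4 lost it. In SK/EPI-siBCRP over SK/EPI-siNC 120 of 135 kept both and 15 lost the call. None reversed. The calls of MGST1, GSTM3, GSTM4, MGST3 and GSTO1 in the first comparison, and of GSTM4, GSTK1 and GSTM3 in the second, held in every fit at an adjusted p under 0.05, but a log2 fold change limit of 1 in size left only MGST1. That limit left 1 member called in the first comparison, 1 up and 0 down, and 0 in the second, and 12 list genes (6 up, 6 down, from 37, 15 and 22) in the first and 0 in the second (from 20, with 11 up and 9 down). With voom all 9 tested members were called in the first comparison, 5 up and 4 down. In the second, 3 members were called with no filter and at an adjusted p under 0.01, and 5 list genes fell under each of these. Leaving out each library gave 5 to 7 members called in the first comparison (2 to 3 up, 3 to 4 down) and 3 to 4 in the second, all up, with 3 without SK/EPI-siNC replicate 1 or 2 or SK/EPI-siBCRP replicate 2 or 3, and 5 to 8 list genes down in the second, the 5 without SK/EPI-siNC replicate 2. Scaling by reads on genes, or without the mitochondrial chromosome, moved the median log2 fold change of all genes in the first comparison from 0.0084 to 0.061 and 0.072. The cause of these shifts was not tested.

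The replicate numbers share only a number. Same-numbered libraries had deviations correlated at -0.0403 to -0.00643 in the first table and -0.0317 to 0.0125 in the second, none over 0.1, so the block is not read as a pairing. With the replicate block the members called were 6 in the first comparison and 4 in the second, where GSTM2 lost its call (adjusted p = 0.0727, limma), and it changed no other call of a member.

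Depth limits GSTP1 (0 or 1 read per library) and GSTM2 (5 to 53 reads). Each group had 3 libraries, and groups of 3 were not screened for outlying libraries. Small changes lost their calls when some single libraries were left out. These were MGST2 in SK/EPI over SK-BR-3, and GSTM2 and MGST3 in SK/EPI-siBCRP over SK/EPI-siNC. The fall of MGST3 in SK/EPI over SK-BR-3 kept its call in each such fit.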
